A study of Mus musculus with 4 samples.

Results

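The neurogenic bHLH and SoxC factors are transcription factors and co-regulators that act as a cortical progenitor becomes a neuron. The group was chosen by gene name and holds 10 genes of the 55414 in the deposited table: Neurog1, Neurog2, Eomes, Insm1, Btg2, Neurod1, Neurod2, Neurod6, Sox4 and Sox11. RNA was sequenced from the cerebral cortex of C57BL/6J mice on postnatal day 1. The 2 libraries labelled cKO (replicates 2 and 3) carry floxed alleles of Mkk7 on both chromosomes together with Emx1-Cre. The 2 libraries labelled Control (replicates 2 and 3) carry the same floxed alleles and no Cre. Mkk7 (Map2k7) encodes a kinase that activates JNK, and Emx1-Cre acts in dorsal forebrain progenitors, so that their excitatory neuron and glial descendants are recombined too. Interneurons, vessels and microglia of the cortex arise outside that lineage. No library with Emx1-Cre and unfloxed Mkk7 was analysed here, so an effect of the Cre allele and one of Mkk7 deletion cannot be told apart. Whether the replicates were separate animals, pools or littermates is not given in the labels. The p-values therefore describe library-to-library spread, part of which may be technical.

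In the developing cortex, radial glia switch on proneural basic helix-loop-helix (bHLH) factors, which bind DNA at E-box motifs as dimers with E proteins. Neurog2 drives the step from radial glia to intermediate progenitors, which are marked by Eomes (Tbr2) and express Insm1 and Btg2. The NeuroD factors follow in newborn and maturing excitatory neurons, and the SoxC factors Sox4 and Sox11 support the survival and differentiation of progenitors and young neurons.

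Libraries held between 19421470 and 22511175 counts, with counts in 21598 to 21914 genes. Map2k7 stood at 47.9 and 48.1 CPM (counts scaled to the TMM-adjusted library size) in the libraries labelled cKO, against 38.4 and 30.4 CPM in those labelled Control (log2 fold change 0.48 with an SE of 0.18, edgeR adjusted p = 0.428). In TPM, the unit scaled by transcript length, its groups overlapped. Every exon of the gene enters these values, and the labels do not name the floxed exons, so the gene does not check the labels. Each direction below rests on the labels alone. The library cKO 3 had 0 counts of Xist and 985 of the Y-linked gene Ddx3y, whereas the other 3 libraries had over 1000 counts of Xist and none of Ddx3y, so the sexes differ within the cKO group. The dorsal telencephalic marker Emx1 stood at 22.5 and 17.2 CPM in the libraries labelled cKO and at 12.6 and 11.1 CPM in those labelled Control (log2 fold change 0.75 with an SE of 0.25, edgeR adjusted p = 0.399). Only the libraries labelled cKO carry Emx1-Cre, and whether that allele alters the counts of Emx1 was not tested.

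Members of a family share coding sequence, which bears on how far their reads can be told apart. The most alike 90-base stretches without gaps were read from GENCODE M21 transcripts, and are shown for the closest pair of SoxC and of NeuroD factors, with the bases that differ within each pair in capitals. Both lie inside the longest open reading frame. The SoxC stretch, in the part that codes for the DNA-binding HMG box, covers bases 873 to 962 of the Sox4 transcript and 317 to 406 of the Sox11 transcript.
Sox4: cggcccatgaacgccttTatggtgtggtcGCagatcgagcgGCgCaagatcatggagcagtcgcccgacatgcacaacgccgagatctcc
Sox11: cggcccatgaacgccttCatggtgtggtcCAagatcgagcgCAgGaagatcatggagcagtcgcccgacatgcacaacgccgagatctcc
The NeuroD stretch, in the part that codes for the bHLH domain, covers bases 524 to 613 of the Neurod1 transcript and 595 to 684 of the Neurod2 transcript.
Neurod1: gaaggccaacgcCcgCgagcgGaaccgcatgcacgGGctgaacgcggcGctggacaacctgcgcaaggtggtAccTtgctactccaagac
Neurod2: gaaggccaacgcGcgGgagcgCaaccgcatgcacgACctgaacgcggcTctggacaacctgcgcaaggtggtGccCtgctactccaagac
The Sox4 and Sox11 stretches differed at 6 of 90 bases, and the longest identical run between their transcripts was 48 bases. The Neurod1 and Neurod2 stretches differed at 8 of 90 bases, with a longest identical run of 25 bases. The longest identical run was 17 bases between Neurod1 and Neurod6, 11 bases between Neurod2 and Neurod6 and 26 bases between Neurog1 and Neurog2. The transcripts of the 10 genes are 1686 to 8311 bases long. The deposited estimated counts of Sox4 and Sox11 were not whole only in cKO 3 (25128.75 and 15916.25), and those of Neurod1 only in cKO 3 and Control 3 (1246.98 and 825.99). All other counts of the 10 genes were whole numbers.

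The promoters are shown for Sox11, Neurod6 and Neurod2, the 3 members with the smallest p in the comparison below. Each covers the 250 bases before and 50 bases after the annotated start (RefSeq, GRCm38.p6), with each E-box, CANNTG, in capitals. That motif reads the same on both strands.
Sox11, chr12:27342669-27342968, minus strand: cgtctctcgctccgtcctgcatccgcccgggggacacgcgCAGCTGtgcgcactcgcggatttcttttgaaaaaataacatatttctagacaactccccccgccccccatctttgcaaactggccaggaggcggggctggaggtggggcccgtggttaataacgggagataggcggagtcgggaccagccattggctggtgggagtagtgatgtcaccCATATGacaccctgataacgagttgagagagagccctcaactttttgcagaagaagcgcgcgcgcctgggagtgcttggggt
Neurod6, chr6:55681214-55681513, minus strand: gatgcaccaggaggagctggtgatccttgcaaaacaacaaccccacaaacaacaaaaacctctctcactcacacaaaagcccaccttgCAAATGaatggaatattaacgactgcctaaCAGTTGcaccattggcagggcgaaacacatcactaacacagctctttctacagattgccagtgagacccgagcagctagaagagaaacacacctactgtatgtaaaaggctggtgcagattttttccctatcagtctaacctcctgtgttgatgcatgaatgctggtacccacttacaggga
Neurod2, chr11:98329596-98329895, minus strand: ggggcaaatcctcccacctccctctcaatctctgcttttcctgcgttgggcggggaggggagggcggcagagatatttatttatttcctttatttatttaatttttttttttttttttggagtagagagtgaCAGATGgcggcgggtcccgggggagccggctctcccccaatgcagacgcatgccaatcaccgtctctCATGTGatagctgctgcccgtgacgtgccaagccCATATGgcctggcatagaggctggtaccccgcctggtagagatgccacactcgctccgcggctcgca
Of the 9 members with a promoter in the table, 6 held at least 1 E-box: Neurod2 held 3, Sox11 and Neurod6 held 2 each, and Sox4, Neurod1 and Neurog1 held 1 each. Neurog2, Eomes and Btg2 held none in this window, and Insm1 had no promoter to search. Of all 32851 promoters of the same length, 72.3% held an E-box, and the median was 1 site. The share with 2 or more sites was not counted, and a link between E-boxes and the fold changes was not tested. The Neurod2 promoter alone among the 9 held CAGATG on either strand, 118 bases before the start, a motif found in 17.2% of all promoters and itself one form of CANNTG. The SOX-type motif ACAAAG, searched on both strands, was in none of the 9 promoters and in 18.7% of all promoters. A match is a string of letters and does not show binding.

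Levels scaled by transcript length (TPM) fell into 3 tiers. Neurod6 (343 to 523 TPM over the 4 libraries) and Sox4 (300 to 374 TPM) stood highest, and their ranges overlapped. Below them, with no overlap with Sox4, came Neurod2 (94.8 to 157 TPM) and Sox11 (67.6 to 124 TPM), which overlapped each other. Neurod1 (19.4 to 31.9 TPM), Insm1 (14.8 to 23.1 TPM), Btg2 (6.92 to 15.0 TPM), Neurog2 (5.62 to 10.9 TPM) and Eomes (3.34 to 6.26 TPM) followed, each overlapping the next in that order. In each of the 4 libraries, all 3 NeuroD genes stood above Eomes, Insm1, Btg2 and Neurog2. Neurog1 had 0 counts in all 4 libraries, where a count of 0 allows up to 3 counts, or 0.131 to 0.158 CPM per library, so it was not detectable at this depth. Counts for the 9 others were at least 146 in every library, and all 9 passed the filter on low counts. None of them passed it through 1 group alone. In bulk tissue, fewer cells of a type and less RNA per cell cannot be told apart.

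**Figure D1:**
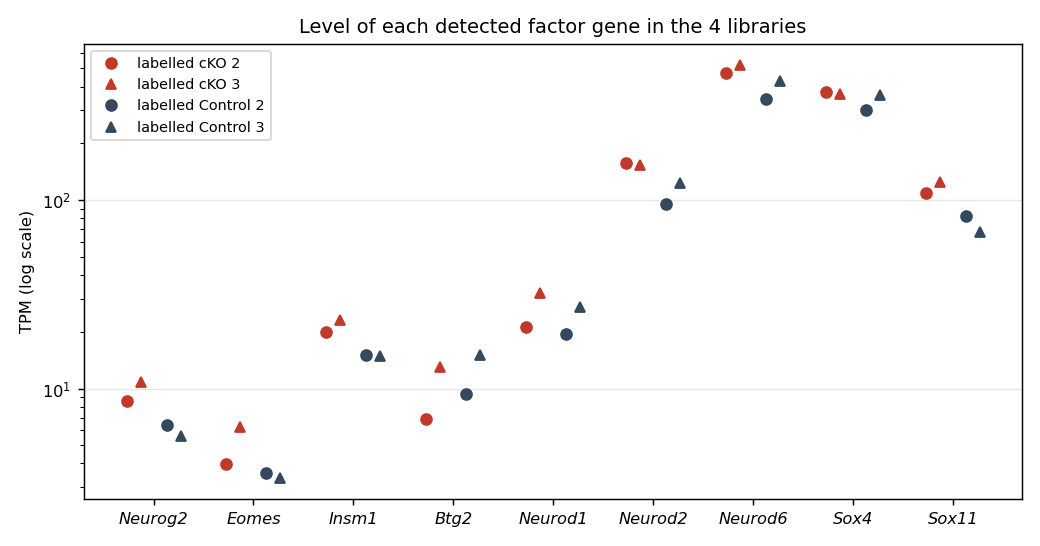
Level of each of the 9 detected factor genes in TPM (log axis), with a point for each library labelled cKO (red) and Control (dark blue). Neurod6 and Sox4 lie at 300 to 523 TPM and Eomes at 3.34 to 6.26 TPM, and Neurog2, Eomes, Insm1, Neurod2, Neurod6, Sox4 and Sox11 show both cKO points above both Control points, Sox4 by a narrow margin.

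The comparison of the groups asked whether these factors differ in newborn cortex with Emx1-Cre on floxed Mkk7. None of the 9 tested members passed the threshold of 0.05 over all 17017 genes tested (edgeR's quasi-likelihood test with Benjamini-Hochberg adjustment; 0 higher and 0 lower). Of all tested genes, 0.00588% were called higher, which is 1 gene, and 7 genes were called lower. DESeq2 called 2 members higher, Sox11 and Neurod2, against 0.470% of all genes called higher by that tool. At an unadjusted edgeR p under 0.05, 5 members were higher (Sox11, Neurod6, Neurod2, Insm1 and Neurog2) and 0 lower. Of all genes tested, 5.28% were higher at that p, which is 898 genes, and another 964 genes were lower. Both cKO libraries lay above both Control libraries for 7 of the 9, against 22.0% of all genes. The log2 fold change was positive for 8 of the 9, against 49.8% of all genes. The median over the 9 was 0.56, where the median over all genes tested was -0.00206, and it was 0.36 without Control 2. The 9 genes are not independent of each other, and these shares describe them without a test.

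**Figure D2:**
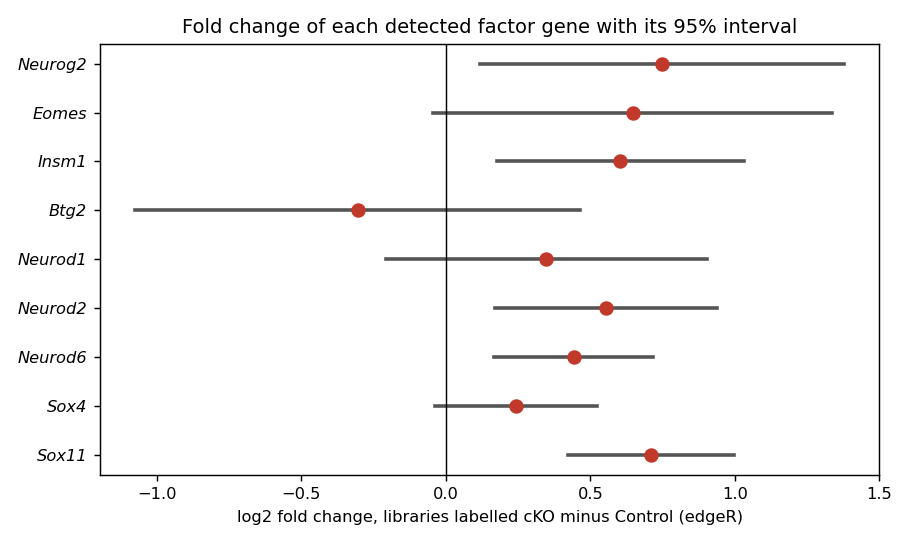
Log2 fold change (libraries labelled cKO minus Control, edgeR) of the 9 detected factor genes, with bars for the 95% interval, which is not adjusted for the number of genes. The intervals of Neurog2, Insm1, Neurod2, Neurod6 and Sox11 lie above 0, and those of Eomes, Btg2, Neurod1 and Sox4 include 0.

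Among the proneural factors, Neurog2 (ENSMUSG00000027967, chromosome 3, 127426784 to 127429280, plus strand, in GRCm39, as for the genes that follow) was read 238 and 314 times in cKO 2 and cKO 3, against 161 and 147 times in Control 2 and Control 3. Scaled to library size, it stood at 12.5 and 13.7 CPM in the libraries labelled cKO and at 8.19 and 7.45 CPM in those labelled Control. Both cKO values lay above both Control values. The log2 fold change was 0.75 (SE 0.27, 95% interval 0.12 to 1.38, n = 2 per group; edgeR adjusted p = 0.413).

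The progenitor factors differed among themselves. Eomes, the T-box factor that marks intermediate progenitors (chromosome 9, 118307280 to 118315200), stood at 10.1 and 13.6 CPM in the libraries labelled cKO, against 7.78 and 7.40 CPM in those labelled Control. The groups did not overlap, but the libraries labelled cKO differed from each other by 0.43 on the log2 scale, and the fold change of 0.65 had an SE of 0.30 (edgeR adjusted p = 0.480). Insm1, a zinc-finger factor that promotes the formation of basal progenitors (chromosome 2, 146063841 to 146066940), was the steadiest of the 9. It stood at 35.61 and 35.56 CPM in the libraries labelled cKO and at 23.0 and 23.8 CPM in those labelled Control. Its log2 fold change of 0.60 (SE 0.18, 95% interval 0.18 to 1.03) had an edgeR adjusted p of 0.363.

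Btg2, an antiproliferative co-regulator of progenitors that make their neurogenic division (chromosome 1, 134002908 to 134006858), was the only one of the 9 with a negative log2 fold change. It stood at 14.9 and 24.6 CPM in the libraries labelled cKO, against 18.6 and 30.3 CPM in those labelled Control. The groups overlapped, and in each group the library numbered 3 was higher than the library numbered 2, by 0.71 among cKO and 0.70 among Control on the log2 scale. The fold change was -0.30 (SE 0.33, 95% interval -1.07 to 0.47; edgeR adjusted p = 0.772) and its sign was not stable, at 0.0096 without cKO 2 and 0.085 without Control 3.

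The NeuroD factors, which follow in postmitotic neurons, all had positive fold changes. Neurod1 (chromosome 2, 79282865 to 79287095), the earliest of them to appear, stood at 38.3 and 54.5 CPM in the libraries labelled cKO, against 31.1 and 41.9 CPM in those labelled Control. The groups overlapped, since cKO 2 lay below Control 3, and the log2 fold change was 0.35 (SE 0.24; edgeR adjusted p = 0.636). As for Btg2, the library numbered 3 was the higher one in each group, by 0.51 among cKO and 0.43 among Control.

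Neurod2 (chromosome 11, 98216241 to 98220474), a factor of maturing excitatory neurons, stood at 356 and 302 CPM in the libraries labelled cKO, against 191 and 257 CPM in those labelled Control. The groups did not overlap, although the Control libraries differed by 0.42 on the log2 scale. The fold change was 0.56 on the log2 scale, a ratio of 1.47 (SE 0.16, 95% interval of the ratio 1.13 to 1.92), and the edgeR adjusted p was 0.362. DESeq2 gave an adjusted p of 0.0497 for it.

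Neurod6 (chromosome 6, 55654807 to 55658248), which is largely restricted to excitatory neurons, stood at 729 and 719 CPM in the libraries labelled cKO, against 479 and 586 CPM in those labelled Control. Both cKO values were close together and above both Control values. The log2 fold change was 0.44 (SE 0.12, 95% interval 0.17 to 0.72; edgeR adjusted p = 0.327, DESeq2 adjusted p = 0.0531).

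Of the SoxC factors, Sox4 (chromosome 13, 29132902 to 29137696) stood at 1264 and 1099 CPM in the libraries labelled cKO, against 903 and 1096 CPM in those labelled Control. The groups did not overlap, but cKO 3 and Control 3 were almost equal. The log2 fold change was 0.24 (SE 0.12, 95% interval -0.04 to 0.52; edgeR adjusted p = 0.516).

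Sox11 (chromosome 12, 27384263 to 27392573) had the smallest p of the group and rank 40 by p among all tested genes. It was read 12920 and 15916.25 times in cKO 2 and cKO 3, against 9141 and 7420 times in Control 2 and Control 3, or 680 and 696 CPM against 465 and 376 CPM. The cKO libraries differed by 0.03 on the log2 scale and the Control libraries by 0.31, and the groups did not overlap. The ratio was 1.64 (95% interval 1.34 to 1.99; log2 fold change 0.71, SE 0.12), with an edgeR adjusted p of 0.226. The DESeq2 adjusted p was 3.72e-05, and without a filter on low counts the edgeR adjusted p was 0.0260.

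**Figure D3:**
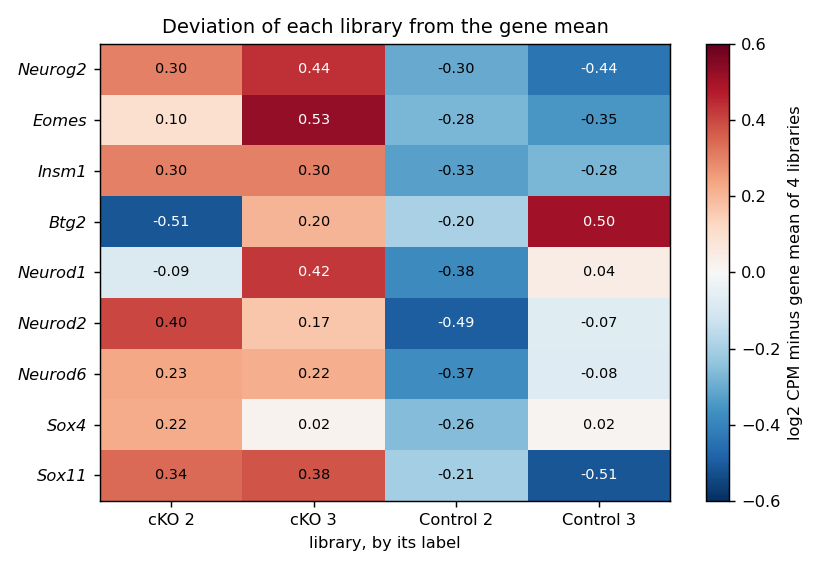
Log2 CPM of each library minus the gene's mean over the 4 libraries, for the 9 detected factor genes. In cKO 2 and cKO 3, 7 of the 9 genes deviate upwards in both, from 0.02 to 0.53, while Btg2 and Neurod1 are higher in the library numbered 3 of each group.

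The direction was the same in TPM. There, Sox11 averaged 117 ± 11.1 TPM in the libraries labelled cKO and 75.1 ± 10.7 TPM in those labelled Control (SD, n = 2 each), and Neurod2 averaged 156 ± 2.21 TPM in the libraries labelled cKO and 109 ± 19.7 TPM in those labelled Control. The 7 genes whose groups did not overlap in CPM did not overlap in TPM either. For Sox4 the gap was again narrow, with 374 and 364 TPM in the libraries labelled cKO and 300 and 363 TPM in those labelled Control.

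Ratios between members were set beside each other per library, in 9 pairs. The Sox11 to Sox4 ratio in TPM was 0.290 and 0.342 in the libraries labelled cKO, against 0.275 and 0.186 in those labelled Control. On the log2 CPM scale it was higher by 0.47 in the libraries labelled cKO, and the groups did not overlap. The Btg2 to Eomes ratio in TPM was 1.74 and 2.08 in the libraries labelled cKO, against 2.61 and 4.50 in those labelled Control, a log2 difference of -0.93 in CPM, again with no overlap. For both pairs the exact permutation test (two-sided) gave p = 0.333, the smallest that 2 against 2 libraries allow, and 1 after Benjamini-Hochberg adjustment over the 9 pairs. The other 7 ratios overlapped between the groups. Among them, the Neurod6 to Neurod2 ratio differed by -0.12 and the Insm1 to Eomes ratio by -0.02 on the log2 scale (exact permutation p of 0.667 and 1).

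By the profile over the 4 libraries, the genes nearest to Sox11 among 4558 others with a mean of at least 50 CPM were Rabgap1l, Twsg1 and the predicted gene Gm4735. Their root mean square distances of log2 deviations were 0.013, 0.033 and 0.057. Rabgap1l stood at 62.5 and 65.1 CPM in the libraries labelled cKO and at 43.4 and 34.4 CPM in those labelled Control. With 4 libraries, 11 genes lay within 0.1 of Sox11, so such closeness is a description of these libraries.

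Relatives of the members outside the list gave no uniform picture. Of 11 relatives from the bHLH, SoxC and T-box families, 8 were tested, 5 had positive and 3 negative fold changes, and none passed the threshold (median 0.19). Sox12, the remaining SoxC factor, stood at 116 and 136 CPM in the libraries labelled cKO, against 116 and 106 CPM in those labelled Control (log2 fold change 0.18, SE 0.14), and the groups overlapped. The bHLH factor genes of postmitotic neurons Nhlh2 and Bhlhe22 had the smallest p. Nhlh2 stood at 12.9 and 16.4 CPM in the libraries labelled cKO, against 8.14 and 6.95 CPM in those labelled Control (0.96, SE 0.28, edgeR adjusted p = 0.362), and Bhlhe22 had a log2 fold change of 0.61 (SE 0.19, edgeR adjusted p = 0.374). Neurod4, at 0.612 to 1.79 CPM, overlapped between the groups. Olig1, of the oligodendrocyte lineage, had a log2 fold change of -0.30 (SE 0.14). Nhlh1 was nearly unread, at 0.0875 to 0.458 CPM, and Neurog3 had 0 counts in every library.

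E proteins, with which the proneural factors pair, had small values that did not pass the threshold. Tcf4 had a log2 fold change of 0.26 (SE 0.11), Tcf12 one of 0.06 (SE 0.17) and Tcf3 one of -0.03 (SE 0.14). Of the 10 listed genes of the ID, HES and HEY families, 6 had positive and 4 negative fold changes, and none passed (median 0.14). Id2, an inhibitor that binds E proteins without binding DNA, stood at 871 and 738 CPM in the libraries labelled cKO, against 453 and 521 CPM in those labelled Control. The groups did not overlap and the log2 fold change was 0.72 (SE 0.12; edgeR adjusted p = 0.221, DESeq2 adjusted p = 2.22e-05). Hes5, a Notch target that holds progenitors back from differentiation, stood at 41.97 and 37.4 CPM in the libraries labelled cKO, against 50.8 and 55.3 CPM in those labelled Control (log2 fold change -0.42 with an SE of 0.16, edgeR adjusted p = 0.434). Hey1 had a value of 0.47 (SE 0.19).

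Of the 10 relatives and cofactors of Btg2 and Insm1, 7 had positive and 3 negative fold changes, and none passed (median 0.12). Btg3, of the same antiproliferative family as Btg2, stood at 10.5 and 7.17 CPM in the libraries labelled cKO, against 3.00 and 4.21 CPM in those labelled Control (log2 fold change 1.29 with an SE of 0.39, edgeR adjusted p = 0.363). The histone deacetylase gene Hdac2 and the corepressor gene Rcor2, components of the complexes through which Insm1 represses, had values of 0.34 (SE 0.11) and 0.43 (SE 0.16). Other cofactor genes of the list did not share that rise, with Hdac1 at -0.05 (SE 0.19), Rcor1 at -0.18 (SE 0.21) and Kdm1a at 0.02 (SE 0.14).

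Other genes of intermediate progenitors and newborn neurons did not pass the threshold. Of 16 such genes, 12 had positive and 4 negative fold changes, with a median of 0.26. The somatostatin receptor gene Sstr2 stood at 109 and 118 CPM in the libraries labelled cKO, against 62.2 and 58.8 CPM in those labelled Control (0.91, SE 0.13; edgeR adjusted p = 0.180, DESeq2 adjusted p = 1.58e-05). The cell-cycle inhibitor gene Cdkn1c had a value of 0.35 (SE 0.14) and the ubiquitin ligase gene Neurl1a one of -0.63 (SE 0.23). Genes of the neuronal cytoskeleton and SoxC targets had a median of 0.06 (9 of 14 positive, none called), with Dcx, Map1b and Dpysl5 at 0.26 (SE 0.09), 0.29 (SE 0.11) and 0.20 (SE 0.10). The pan-neuronal tubulin gene Tubb3 stood at 2680 and 2417 CPM in the libraries labelled cKO, against 2559 and 2807 CPM in those labelled Control, and these values overlapped.

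**Figure D4:**
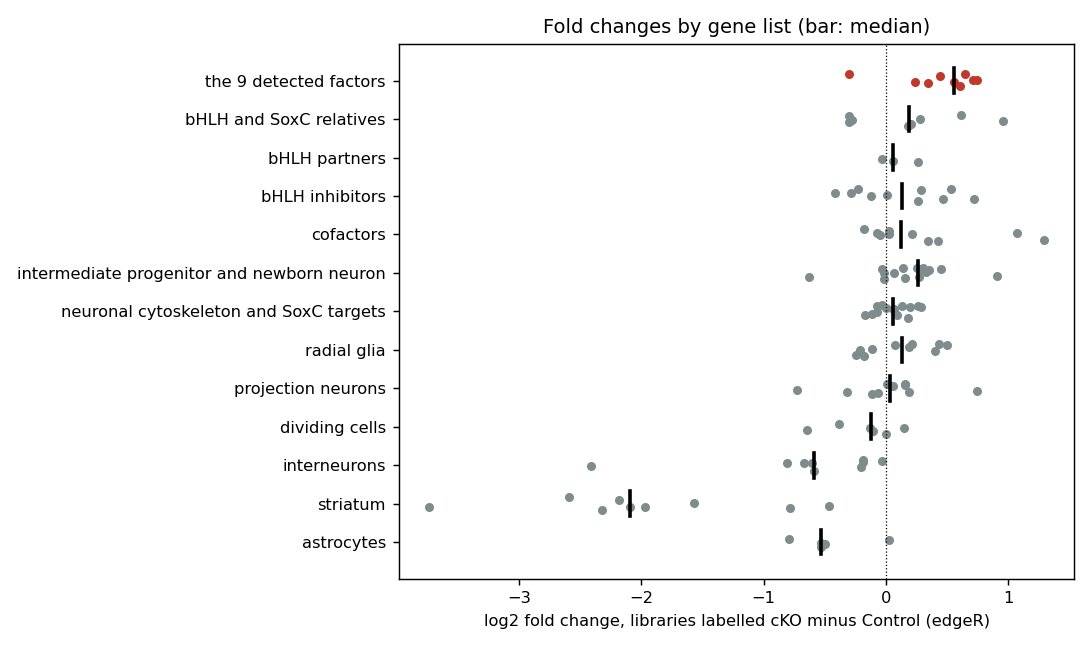
Log2 fold change (libraries labelled cKO minus Control, edgeR) of each tested gene, by list, with a black bar at the list's median. The 9 detected factors (red) have a median of 0.56, the genes of intermediate progenitors and newborn neurons one of 0.26, projection neurons one of 0.03 and striatal genes one of -2.09.

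Marker lists for the cells around these factors gave the following values. Radial glia genes had a median of 0.13 (6 of 10 positive) and summed to 1752 and 1702 CPM in the libraries labelled cKO, against 1722 and 1768 CPM in those labelled Control. Among them Tnc, Nes and Emx2 had values of 0.44, 0.40 and 0.50. Sox2, Pax6, Slc1a3 and Fabp7 went the other way, at -0.24, -0.21, -0.18 and -0.11. Projection neuron genes had a median of 0.03 (6 of 10 positive), with Emx1 at 0.75, Foxp2 at -0.73 and Bcl11b at -0.32. These genes summed to 838 and 859 CPM in the libraries labelled cKO, against 880 and 907 CPM in those labelled Control. Bcl11b was the largest single part of that sum. It stood at 201 and 212 CPM in the libraries labelled cKO, against 267 and 247 CPM in those labelled Control, so the lower sum does not describe the list evenly. Genes of dividing cells were positive in 2 and negative in 4 of 6 cases (median -0.12), with Mcm5 at -0.65, Mki67 at -0.38 and Pcna at -0.13. None of these passed the threshold.

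Striatal genes were lower in all 9 cases, with a median of -2.09, and summed to 130 and 109 CPM in the libraries labelled cKO, against 401 and 295 CPM in those labelled Control. Rxrg, a retinoid receptor gene, was the 1 gene of all lists that passed and fell to 3.37 and 7.83 CPM in the libraries labelled cKO, against 87.2 and 63.5 CPM in those labelled Control (edgeR adjusted p = 0.0414). No gene of these lists was called when any 1 library was left out. Rarb, another retinoid receptor gene, had a log2 fold change of -2.59. Interneuron genes were negative in 9 of 9 cases (median -0.59), with Sst at -0.67, Dlx6 at -2.42 and Gad2 at -0.60. They summed to 792 and 668 CPM in the libraries labelled cKO, against 945 and 885 CPM in those labelled Control. The falls were uneven within that list, with Dlx1, Dlx2, Lhx6 and Npy at only -0.20, -0.19, -0.18 and -0.03. Astrocyte genes were negative in 4 of 5 cases (median -0.53), with Apoe at -0.53, Aqp4 at -0.79 and Aldh1l1 at -0.49. They summed to 853 and 922 CPM in the libraries labelled cKO, against 1104 and 1202 CPM in those labelled Control. These lists move with the same contrast as the factor genes, and their part in the results above was not tested.

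Each list of markers of other tissue had counts in all libraries, although not every gene of these lists did. Meningeal genes summed to 272 and 247 CPM in the libraries labelled cKO, against 192 and 214 CPM in those labelled Control, with Dcn, Col1a2 and Col1a1 at 0.67, 0.36 and 0.36. Endothelial genes were positive in 3 of 4 cases (median 0.52; Flt1 0.69, Cdh5 0.74, Pecam1 0.35) and summed to 155 and 144 CPM in the libraries labelled cKO, against 144 and 136 CPM in those labelled Control. Cldn5, which makes up most of that sum, had a log2 fold change of -0.11, at 103 and 90.6 CPM in the libraries labelled cKO, against 105 and 104 CPM in those labelled Control. Microglial genes were negative in 4 of 4 cases (median -0.37; Cx3cr1 -0.54, Aif1 -0.65, Csf1r -0.16). Oligodendrocyte precursor genes were positive in 2 of 3 cases (median 0.25; Cspg4 0.32, Pdgfra 0.25, Sox10 -0.32). The choroid plexus sum, carried by Ttr, was high in the library numbered 2 and low in the library numbered 3 of each group, with 350 and 9.58 CPM in cKO 2 and cKO 3, against 787 and 12.9 CPM in Control 2 and Control 3. Folr1 and Aqp1 were likewise higher in the library numbered 2 of each group. Kl, at 0 to 1.37 CPM, was highest in Control 3. Red cell genes summed to 3231 and 1188 CPM in cKO 2 and cKO 3, against 2008 and 2236 CPM in Control 2 and Control 3, with Slc4a1, Hbb-bs and Hba-a1 at -2.68, 0.13 and -0.06 and Slc4a1 at 0 in cKO 3. The globin genes have near-identical copies, so their values are uncertain.

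The structure of the genes was compared with the fold change over all tested genes, using GENCODE M21 models matched by gene ID for 99.8% of them. Sox4, Sox11 and Insm1 have 1 exon, so their reads cannot be told from those of genomic DNA. The RNA was treated with DNase per the labels' protocols. Neurog1 also has 1 exon and had 0 counts in every library. Among the 371 tested single-exon coding genes the median of the log2 fold change was 0.07, and both cKO libraries lay above both Control libraries for 27.2% of them. By GC content of the transcript, medians over 5 equal bins of the genes ran from 0.08 in the lowest to -0.08 in the highest bin. The members lay in the lowest bin (Neurod1 and Neurod6), the next 3 (Sox11, then Sox4 and Btg2, then Eomes) and the highest (Neurog2, Insm1 and Neurod2). The part of exon number and GC content in the differences was not tested.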

How the data were processed

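Per the labels' protocols, total RNA was extracted with TRIzol, treated with DNase and converted with SMART-Seq v4, whose reads carry no strand information. Per the submitters' processing notes, the tool was DRAGEN and the build GRCm39. Its version and settings are not given in the labels. The deposited estimated counts per gene were rounded to whole numbers, and the deposited TPM values (1e+06 per library) served for levels between genes. edgeR (4.0.16, R 4.3.3) with its default filter left 17017 of 55414 genes tested, and libraries were scaled by TMM (factors 0.979 to 1.02). The quasi-likelihood test with Benjamini-Hochberg adjustment over all genes tested gave the calls. SE is the absolute log2 fold change over the square root of F, and intervals use the test's degrees of freedom. The deposited gene length in bases is one value per gene. DESeq2 (1.42.0), limma (3.58.1) and the other alternatives stand in the closing section. The 138 genes of 18 lists, 133 of them tested, matched symbols of the deposited table. The text names all members, Map2k7, Emx1, up to 3 genes of each list with the smallest p, the 3 genes nearest to Sox11, and the relatives Sox12, Neurod4, Nhlh1 and Bhlhe22, except 2 genes that are not reported here. Neurog3, Tubb3, Cldn5, Kl, Xist and Ddx3y fall outside that rule and were chosen after their values were seen. The same holds for Sox2, Pax6, Slc1a3, Fabp7, Hdac1, Rcor1, Kdm1a, Dlx1, Dlx2, Lhx6 and Npy. Members and lists were chosen with earlier results of these data known. The libraries of a group were not duplicates (chi-square over its degrees of freedom 30.2 for the cKO pair and 13.6 for the Control pair). Replicate numbers 2 and 3 recur in both groups without a stated tie, so the genotype was the only term. Intervals and floors cover counting error or library spread only.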

Additional observations from a re-analysis of the deposited data

How the results depend on the processing

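Over 15 alternatives, the 8 members with a positive log2 fold change kept their sign, with Sox11 between 0.56 and 0.87, Neurod2 between 0.36 and 0.78, Neurod6 between 0.30 and 0.59 and Neurod1 between 0.067 and 0.58. Btg2 lay between -0.71 and 0.085 when 1 library was left out and turned positive without cKO 2 (0.0096) or Control 3 (0.085). No member was called lower under any alternative, and members called higher numbered 1 with no filter (Sox11, adjusted p = 0.0260) and 2 with DESeq2 (Sox11 and Neurod2). The adjusted p of Sox11 ranged from 3.72e-05 to 0.919 over the alternatives. The median of the members was 0.43 on log2(TPM + 1) and 0.36 to 0.59 when 1 library was left out. Genes called higher numbered 21 with no filter, 2 at a mean of at least 1 CPM, 80 with DESeq2, 3 with limma-voom, 33 and 23 on log2(TPM + 1) and log2(TPM + 0.1), 3 among protein-coding genes and 0 when any 1 library was left out. Genes called lower numbered 37, 105 and 14 with no filter, DESeq2 and log2(TPM + 1), and 0 to 2 when 1 library was left out. Of the listed genes around the members, 2 were called higher with no filter and with DESeq2, and 5, 10, 2 and 2 lower with no filter, DESeq2, log2(TPM + 1) and log2(TPM + 0.1), and 0 when 1 library was left out. The cause of these differences was not tested. With a replicate block, 1 gene was called higher and 6 lower, and no member was called. The numbers were not taken as pairs because the labels state no tie. Deviations of same-numbered libraries correlated at 0.0136 over all genes tested. That value cannot exclude a tie that affects some genes, and Btg2, Neurod1 and the choroid plexus sum did follow the number in both groups. Of the 9 ratios, 3 kept their sign without each library in turn. List medians kept within the spread between libraries in 228 of 270 values. Scaling moved the median of all genes by at most 0.04.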
